A study of Mus musculus with 32 samples.

Results

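The hepatic expression of 10 genes of iron handling and of its hormone hepcidin was examined, out of 20076 genes in the count table. These were the hepcidin genes Hamp and Hamp2, the iron exporter ferroportin (Slc40a1), transferrin (Trf) and its receptors Tfrc and Tfr2, the ferritin subunits Fth1 and Ftl1, and Id1 and Smad7, which respond to the signal that drives hepcidin. They were chosen by name, all 10 were present in the table, and all 10 passed the filter on low counts, which kept 11566 genes. The study compared male C57BL/6J mice that lack medium-chain acyl-CoA dehydrogenase throughout the body (Acadm knockout, KO) with wild-type (WT) littermates. Within each genotype, mice received a semi-synthetic low-fat (LF) or high-fat (HF) diet, the latter based on palm oil, for 6 weeks, and were then kept on it (fed) or left without food for 16 h (fasted). RNA came from 1 piece of liver per mouse, 4 mice in each of the 8 groups, and was read from the 3′ end of each transcript. Ages at the labels run from 7.5 to 16 with no unit given. Between 2031053 and 4292200 reads per mouse were assigned to genes (median 2899001). Each library came from a separate mouse, so that p-values measure the spread between mice. Levels are given as CPM, the counts of a gene relative to its library size after TMM scaling, so they serve to compare mice within a gene and not genes with each other.

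Acadm itself had 26 to 94 counts in KO and 566 to 2752 in WT libraries. Of the 32 libraries, 2 were left out of the fits. The library labelled HF fasted KO replicate 4 had a summed level of 12 heart muscle markers of 43736 CPM, against at most 375 in the 30 mice used, and a sum of 10 hepatocyte markers of 844 CPM, against at least 45584. In the library labelled LF fed WT replicate 2 the hepatocyte markers summed to 34557 CPM, also below the 30 mice used. All group values below therefore rest on 30 mice, with 3 in the LF fed WT and HF fasted KO groups and 4 in each other group, with 16 mice on sequencing lane 7 and 14 on lane 8. Calls that are lost when these libraries are put back are named. Lane 7 holds no LF fed WT mouse, so that effects within a lane were fitted with additive terms for genotype, diet and feeding and are not averages over the 4 pairs. Pancreatic acinar markers reached 17645 CPM in HF fasted WT replicate 2 and 2566 CPM in HF fed KO replicate 1, against 2.18 to 54.3 CPM in the others. Since the RNA is from whole tissue, fewer cells of a type and less RNA per cell cannot be told apart.

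Hepcidin is a peptide hormone made mainly by hepatocytes. It binds ferroportin, the cellular iron exporter, and causes its breakdown, so that less iron leaves the gut and the macrophages. Its transcription follows a pair of main inputs, a bone morphogenetic protein (BMP) signal carried by SMAD proteins, which reports iron stores and uses Tfr2 as a sensor of transferrin iron, and an inflammatory signal from interleukin-6 carried by STAT3. Inside cells, iron regulatory proteins bind stem-loops in messenger RNA called iron-responsive elements. This binding stabilises the Tfrc messenger, and it blocks translation of the ferritin and ferroportin messengers.

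The sequences of the hepcidin promoters are shown because Hamp2 passed the test for food removal and its neighbour Hamp did not. Both genes lie on the minus strand of chromosome 7 (Hamp at chr7:30942368-30944032 and Hamp2 at chr7:30922372-30924681, GRCm38). The 250 bases upstream of each start site in RefSeq (GRCm38.p6) are given 5′ to 3′, with capitals for the match to the BMP-responsive core GGCGCC, or the aligned letters in the paralog, and for the match to the STAT motif TTCNNNGAA. The windows are chr7:30944030-30944279 for Hamp and chr7:30924182-30924431 for Hamp2. The gene spans are from GENCODE vM21, where Hamp2 starts further upstream than in RefSeq, so that the Hamp2 window lies inside its span.
Hamp: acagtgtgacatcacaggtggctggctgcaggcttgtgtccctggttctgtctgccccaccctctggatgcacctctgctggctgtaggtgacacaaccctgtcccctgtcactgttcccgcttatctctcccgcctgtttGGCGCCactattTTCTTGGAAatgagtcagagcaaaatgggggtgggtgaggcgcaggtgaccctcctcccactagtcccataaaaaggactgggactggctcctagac
Hamp2: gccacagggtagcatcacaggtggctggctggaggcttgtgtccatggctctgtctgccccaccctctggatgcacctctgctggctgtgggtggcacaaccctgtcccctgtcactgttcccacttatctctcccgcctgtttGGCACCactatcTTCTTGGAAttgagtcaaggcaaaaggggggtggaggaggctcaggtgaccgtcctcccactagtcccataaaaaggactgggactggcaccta
Over 247 aligned bases, 227 were the same, an identity of 91.9%. The STAT letters TTCTTGGAA were identical in both. The BMP core carried the substitution G4A in Hamp2, counted from 1 at the start of the Hamp core. In Hamp this core began 109 bases and the STAT match 97 bases upstream of the start site. The 250 bases upstream of the start were searched in 32851 RefSeq windows. GGCGCC, which reads the same on both strands, was found in 9.59% of them, among them those of Hamp and Tfrc. TTCNNNGAA, also the same on both strands, was found in 7.02%, with Hamp and Hamp2 among them. GGCACC on either strand was found in 12.9%, with Hamp2, Fth1 and Ftl1 among them. Trf, Slc40a1, Id1 and Smad7 have no window in this table. These matches are descriptions of letters and not of bound sites.

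The iron-responsive elements are shown because they are known to couple cellular iron to these transcripts. A search of the reference transcripts for a bulged C, 5 paired bases, the loop CAGNGN and 5 closing bases found 5 sites in Tfrc after the coding sequence and 1 site each in Fth1, Ftl1 and Slc40a1 before it. The loop is in capitals.
Tfrc site 1: atttatcagtgaCAGAGTtcactataaata
Tfrc site 2: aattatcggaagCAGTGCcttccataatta
Tfrc site 3: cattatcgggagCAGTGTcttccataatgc
Tfrc site 4: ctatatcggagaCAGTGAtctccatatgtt
Tfrc site 5: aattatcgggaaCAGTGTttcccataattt
Fth1: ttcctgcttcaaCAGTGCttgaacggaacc
Ftl1: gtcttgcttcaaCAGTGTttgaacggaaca
Slc40a1: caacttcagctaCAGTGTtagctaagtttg
In GRCm38 the Tfrc sites lie on the plus strand at chr16:32631160-32631189, chr16:32631219-32631248, chr16:32631598-32631627, chr16:32631663-32631692 and chr16:32631710-32631739. The Fth1 site is at chr19:9982732-9982761 on the plus strand, the Ftl1 site at chr7:45459778-45459807 and the Slc40a1 site at chr1:45925464-45925493 on the minus strand.

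Because reads were taken near the transcript end, the last 300 bases of each gene were compared with all other transcripts in windows of the read length, 50 bases. For Ftl1, 165 of 251 windows (65.7%) also occurred in other genes, 115 of them in Ftl1-ps1, and only 0 to 21 reads per mouse were counted on it, so that its values are uncertain. Hamp and Hamp2 shared 22 of 251 windows (8.76%) with each other. The other 7 genes shared none. Counts per mouse ran from 4 to 229 for Hamp2, from 18 to 143 for Tfrc, from 24 to 231 for Id1 and from 19 to 90 for Smad7, against 349 to 4526 for Hamp and 10746 to 28654 for Trf, so that the first 4 carry more counting error.

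Food removal was the first comparison. Over the 4 genotype and diet pairs, 3 of the 10 genes passed the test, 1 higher and 2 lower in fasted mice, where 18.9% of all genes passed (9.77% higher and 9.14% lower). A gene passed with an adjusted p below 0.05 in edgeR's quasi-likelihood test, after Benjamini-Hochberg adjustment over 11566 genes. Hamp2 and Trf fell and Tfr2 rose, whereas Hamp did not pass the test. The median log2 fold change was -0.04 over the 10 genes and -0.0022 over all genes.

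Hamp2 showed the largest change of the 10. In fed mice it stood at 26.9, 48.6 and 41.6 CPM in LF WT, 56.7, 56.5, 54.9 and 17.5 CPM in LF KO, 50.5, 9.15, 55.1 and 43.4 CPM in HF WT and 37.4, 55.1, 57.7 and 73.4 CPM in HF KO mice. In fasted mice it stood at 10.4, 8.83, 6.47 and 14.4 CPM in LF WT, 2.65, 10.3, 42.7 and 5.87 CPM in LF KO, 27.3, 29.3, 5.35 and 7.71 CPM in HF WT and 13.5, 10.9 and 1.08 CPM in HF KO mice. Fed and fasted mice were separate in the LF WT and HF KO pairs. The other pairs overlapped through a fed mouse at 9.15 CPM in HF WT, and through a fed mouse at 17.5 CPM and a fasted mouse at 42.7 CPM in LF KO mice. Hamp2 was 3.68-fold lower with fasting (log2 fold change -1.88 ± 0.36 SE, edgeR adjusted p = 5.16e-04). Within the 4 pairs its log2 fold change was -1.92 in LF WT, -1.66 in LF KO, -1.20 in HF WT and -2.75 in HF KO mice, with edgeR adjusted p from 0.127 to 0.643, so that none passed the test alone. The value over the 4 pairs passed in all 30 fits that left out 1 mouse, and it was -2.09 (edgeR adjusted p = 4.02e-04) with all 32 libraries. Within sequencing lane 7 it was -1.39 (edgeR adjusted p = 0.174) and within lane 8 -2.75 (edgeR adjusted p = 0.00338).

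Hamp, the gene of circulating hepcidin, did not pass the test for fasting. Its fed values were 661, 527 and 537 CPM in LF WT, 586, 783, 624 and 651 CPM in LF KO, 430.4, 269, 104 and 429.9 CPM in HF WT and 523, 557, 361 and 576 CPM in HF KO mice. Its fasted values were 927, 1228, 313 and 570.2 CPM in LF WT, 369, 1166, 1011 and 684 CPM in LF KO, 685, 488, 318 and 229 CPM in HF WT and 521, 187 and 299 CPM in HF KO mice. Fasted mice covered the whole fed range on the LF diet and were more spread out, with an SD of 351 CPM over 8 fasted and of 87.2 CPM over 7 fed mice. The log2 fold change with fasting was 0.15, with an interval from -0.30 to 0.60 (95% confidence, edgeR adjusted p = 0.736). Of the counts on the paralogs together, Hamp2 took a median of 8.44% in the 15 fed mice (2.62 to 34.6%) and of 2.03% in the 15 fasted mice (0.361 to 5.68%). The difference between the responses of the paralogs was not itself tested.

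**Figure D1:**
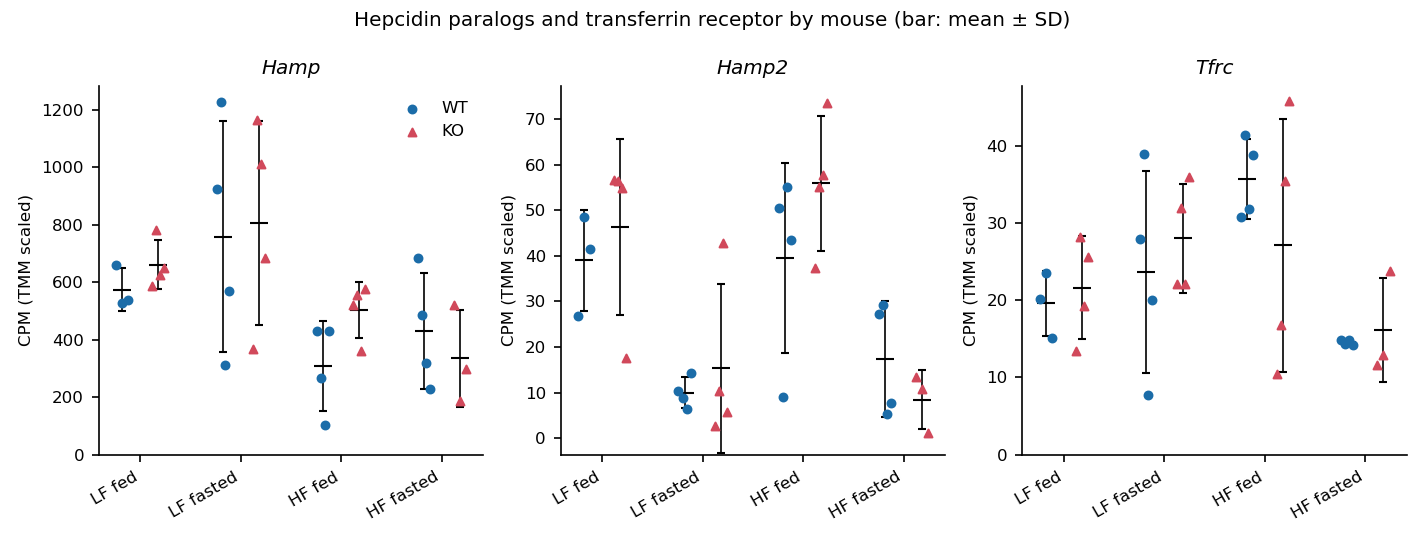
CPM of Hamp, Hamp2 and Tfrc (vertical axes) in each of the 30 mice by diet and feeding state, with circles for WT and triangles for KO mice and bars for the group mean ± SD. Hamp2 is low in most fasted mice of all 4 pairs, Hamp has lower group means on the HF diet, and Tfrc in fasted mice on the HF diet lies between 11.6 and 23.8 CPM.

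Trf, the plasma carrier that delivers iron to cells, fell with fasting. Fed mice had 6887, 7559 and 7119 CPM in the LF WT, 7650.1, 7502, 7492 and 6968 CPM in the LF KO, 5848, 6968, 6889.9 and 6977 CPM in the HF WT and 5945, 6717, 6964 and 7069 CPM in the HF KO group. Fasted mice had 4003, 5588, 5489.7 and 5464 CPM in the LF WT, 5969, 3936, 5814 and 5037 CPM in the LF KO, 5103, 5609, 5572 and 5676 CPM in the HF WT and 6623, 4941 and 6424 CPM in the HF KO group. Every fasted mouse lay below every fed mouse of its own genotype and diet except among HF KO mice, where the ranges overlapped. Trf was 1.28-fold lower over the 4 pairs (log2 fold change -0.36 ± 0.074 SE, edgeR adjusted p = 3.55e-04) and passed without any 1 of the 30 mice. It was also called within the LF pairs, where 7.54% of genes were called in WT (log2 fold change -0.48 ± 0.15 SE, edgeR adjusted p = 0.0424) and 13.8% in KO mice (log2 fold change -0.51 ± 0.14 SE, edgeR adjusted p = 0.0114). The WT call was lost in 10 of the 30 fits without 1 mouse, with edgeR adjusted p up to 0.175. These were the fits without LF fasted WT replicate 1, 2 or 4, LF fed WT replicate 1, 3 or 4, LF fed KO replicate 3, HF fed KO replicate 2 and HF fasted WT replicate 3 or 4. It also did not pass with all 32 libraries (edgeR adjusted p = 0.804). Among those 30 fits the KO call was lost only without LF fasted KO replicate 2 (edgeR adjusted p = 0.0572), and with all 32 libraries it was lost too (edgeR adjusted p = 0.655). Within the HF pairs the log2 fold change was -0.28 in WT (edgeR adjusted p = 0.564) and -0.15 in KO mice (edgeR adjusted p = 0.949), and the difference between diets did not pass (edgeR adjusted p = 0.417). With all 32 libraries the overall value was -0.43 but no longer passed (edgeR adjusted p = 0.301). The library with heart markers held 143 CPM of Trf. Within lane 7 the value was -0.36 (edgeR adjusted p = 0.165) and within lane 8 -0.35 (edgeR adjusted p = 0.0115).

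Tfr2, the receptor through which hepatocytes read transferrin iron, rose slightly. It was at 198, 191 and 189 CPM in LF fed WT, 210.2, 215, 213 and 242 CPM in LF fed KO, 182, 233, 180.3 and 199 CPM in HF fed WT and 181, 196, 198 and 229 CPM in HF fed KO mice. In fasted mice it was at 222, 235, 267 and 267 CPM in LF WT, 240.0, 226, 239 and 236 CPM in LF KO, 249.7, 202, 254 and 257 CPM in HF WT and 193, 217 and 269 CPM in HF KO mice. Fasted and fed mice were separate only in the LF WT pair. The rise was 1.17-fold (log2 fold change 0.23 ± 0.071 SE, edgeR adjusted p = 0.0180), and it no longer passed without HF fasted KO replicate 3 (edgeR adjusted p = 0.0584), with no filter on low counts (edgeR adjusted p = 0.0710), or with all 32 libraries (0.18, edgeR adjusted p = 0.694), of which LF fed WT replicate 2 held 93.7 CPM. Within lane 7 it was 0.13 (edgeR adjusted p = 0.648) and within lane 8 0.34 (edgeR adjusted p = 0.0202).

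The other members gave no call for fasting. Tfrc, the receptor that takes transferrin iron into most cells, had a log2 fold change of -0.34 over the 4 pairs (edgeR adjusted p = 0.233). Slc40a1 (-0.02 ± 0.097 SE) and Fth1 (-0.05 ± 0.076 SE) were close to 0, with edgeR adjusted p of 0.923 and 0.705. Id1 and Smad7, which are induced by the BMP signal and, for Smad7, limit it, were at 0.09 and -0.13 (edgeR adjusted p = 0.860 and 0.718).

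**Figure D2:**
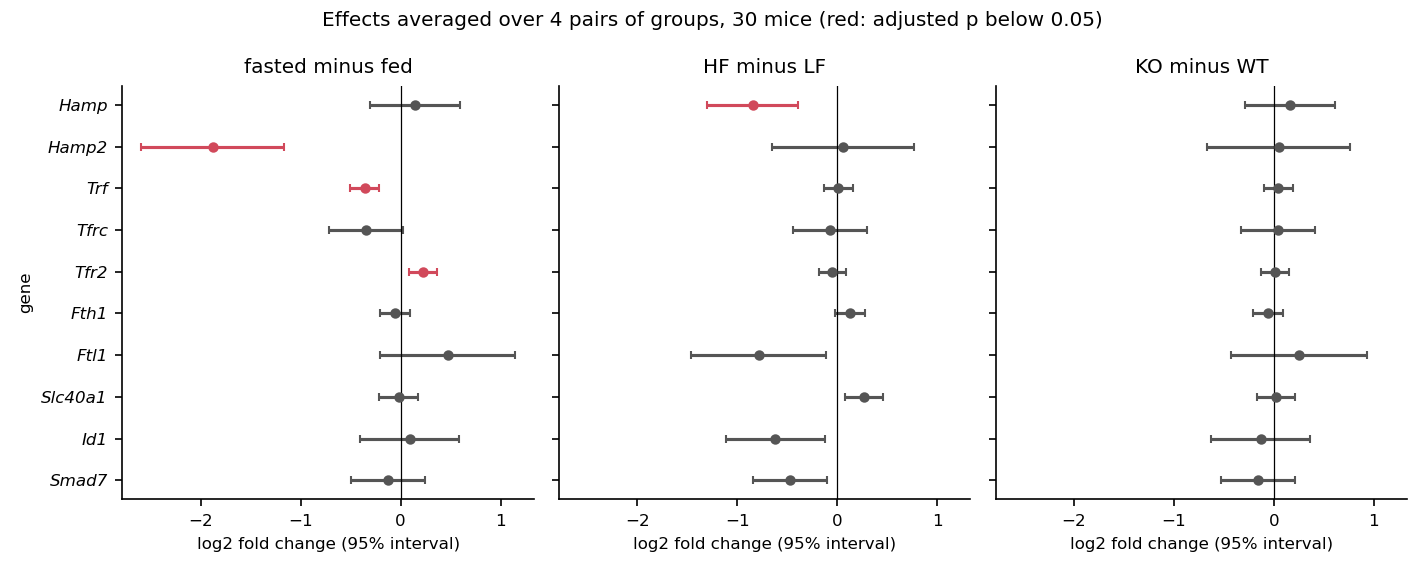
Log2 fold changes (horizontal axes) of the 10 genes for fasting, HF diet and knockout, each averaged over 4 pairs of groups in 30 mice, with bars of the 95% confidence interval and red for an edgeR adjusted p below 0.05. Hamp2, Trf and Tfr2 are red for fasting, Hamp for diet and none for genotype.

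The diet was the second comparison, and Hamp was the member that passed the test. Over the 4 genotype and feeding pairs, 1 of 10 genes had an adjusted p below 0.05 (edgeR), where 3.49% of all genes did (2.26% higher and 1.24% lower on the HF diet). The 15 mice on the HF diet had a mean of 398 ± 163 CPM (SD) of Hamp and the 15 on the LF diet 709 ± 268 CPM. Among the values given above, every fed mouse on the HF diet lay below every fed mouse on the LF diet of its genotype, while the fasted ranges overlapped. Hamp was 1.80-fold lower on the HF diet (log2 fold change -0.84 ± 0.23 SE, edgeR adjusted p = 0.0434). The log2 fold change was -0.65 in fed mice (edgeR adjusted p = 0.562, 0.268% of genes called) and -1.04 in fasted mice (edgeR adjusted p = 0.0624, 6.65% called), and -0.40 for their difference (edgeR adjusted p = 0.807). The call was close to the threshold. It was kept in 8 of 30 fits without 1 mouse, with edgeR adjusted p from 0.0180 to 0.0876, the highest without HF fasted KO replicate 3. The 8 fits were those without HF fed WT replicate 1, 3 or 4, HF fasted WT replicate 1, HF fasted KO replicate 1, LF fasted WT replicate 3 or 4, or LF fasted KO replicate 1. Without HF fasted WT replicate 2, the library with pancreatic markers, the value was -0.86 (edgeR adjusted p = 0.0541). The call was also lost with all 32 libraries (-0.96, edgeR adjusted p = 0.131). Within lane 7 the value was -0.94 (edgeR adjusted p = 0.405) and within lane 8 -0.64 (edgeR adjusted p = 0.0405).

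Hamp2 did not pass for diet, at a log2 fold change of 0.06 with an interval from -0.65 to 0.77 (95% confidence, edgeR adjusted p = 0.967). For diet, 1830 of 11566 genes had an unadjusted edgeR p below 0.05. Among them were a further 4 members whose p did not survive the adjustment. Id1 (-0.62, edgeR adjusted p = 0.215), Smad7 (-0.47, edgeR adjusted p = 0.192) and Ftl1 (-0.78, edgeR adjusted p = 0.240) had lower values on the HF diet, as Hamp did. Slc40a1, the target of hepcidin, had higher values (0.27, edgeR adjusted p = 0.123).

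Slc40a1 ranged over 114 to 189 CPM (median 134) in 7 LF fed, 96.6 to 199 CPM (median 144) in 8 LF fasted, 134 to 213 CPM (median 173) in 8 HF fed and 132 to 217 CPM (median 183) in 7 HF fasted mice. Smad7 ranged over 8.01 to 30.9 CPM (median 18.3) in LF fed, 8.50 to 22.1 CPM (median 16.2) in LF fasted, 7.32 to 19.6 CPM (median 11.3) in HF fed and 6.77 to 20 CPM (median 11.3) in HF fasted mice. For both genes the ranges on the diets overlapped in either feeding state. Ftl1, the light ferritin subunit, ranged over 0 to 6.57 CPM (median 3.12) in LF fed and 0.321 to 2.40 CPM (median 1.44) in HF fed mice, and all 4 HF fed WT mice lay below the 3 LF fed WT mice. Fth1 ranged over 1383 to 1711 CPM (median 1501) in LF fed, 1167 to 1739 CPM (median 1560.1) in LF fasted, 1423 to 2011 CPM (median 1744) in HF fed and 1305 to 1959 CPM (median 1551) in HF fasted mice (log2 fold change for diet 0.13, edgeR adjusted p = 0.455).

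Id1 had the smallest p of the 10 genes for diet in fed mice, but did not pass. It was at 26.2, 27.8 and 74.5 CPM in LF fed WT and 31.1, 10.5, 64.2 and 21.0 CPM in LF fed KO mice, and at 9.33, 10.2, 15.2 and 18.5 CPM in HF fed WT and 19.2, 36.7, 17.4 and 9.62 CPM in HF fed KO mice. All HF fed WT mice lay below the 3 LF fed WT mice, whereas the KO groups overlapped. The log2 fold change in fed mice was -1.15 ± 0.36 SE (edgeR adjusted p = 0.231), and in fasted mice -0.08 (edgeR adjusted p = 0.944). The library left out of the LF fed WT group held 98.1 CPM of Id1, more than any of the 30 mice.

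**Figure D3:**
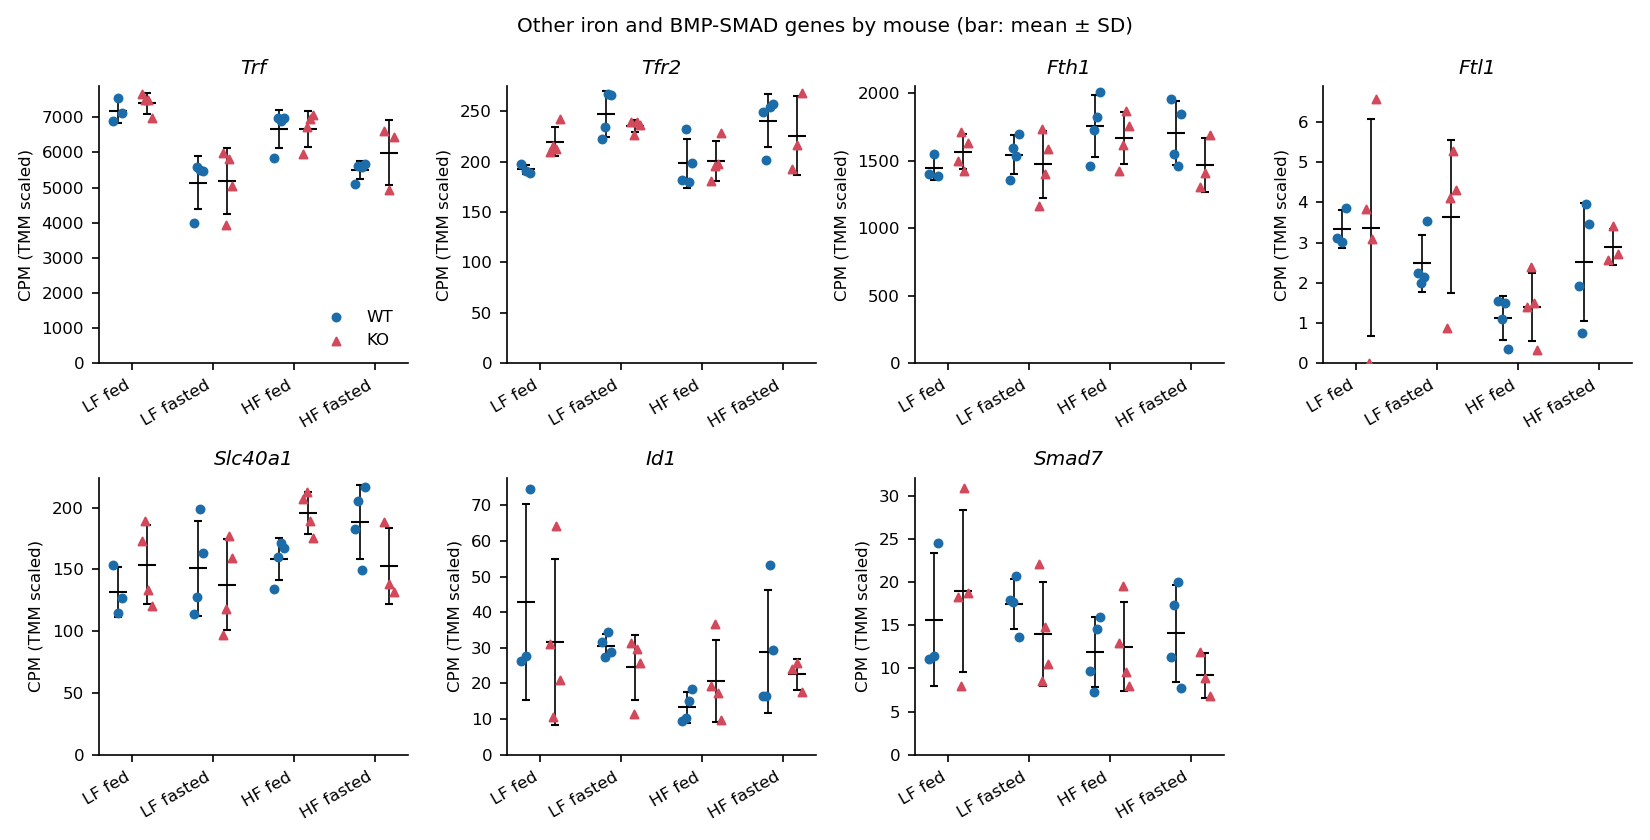
CPM of Trf, Tfr2, Fth1, Ftl1, Slc40a1, Id1 and Smad7 (vertical axes) in each of the 30 mice by diet and feeding state, with circles for WT, triangles for KO and bars for the group mean ± SD. Trf is lower in fasted mice, Slc40a1 lies between 96.6 and 217 CPM, and Ftl1 never exceeds 6.57 CPM.

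Tfrc did not pass the test for a difference of the fasting effect between the diets, with an edgeR adjusted p just above the threshold. On the LF diet it was at 20.2, 23.5 and 15.2 CPM in fed WT, 27.9, 38.9, 7.76 and 20 CPM in fasted WT, 13.5, 28.2, 19.2 and 25.7 CPM in fed KO and 22.1, 31.9, 22.2 and 36.0 CPM in fasted KO mice. On the HF diet it was at 30.7, 41.4, 31.9 and 38.8 CPM in fed WT, 14.9, 14.3, 14.9 and 14.3 CPM in fasted WT, 10.5, 16.8, 35.4 and 45.8 CPM in fed KO and 11.6, 12.9 and 23.8 CPM in fasted KO mice. The 4 HF fasted WT mice were at 14.6 ± 0.350 CPM (SD), below all HF fed WT mice, while the other pairs overlapped. These 4 values rest on 37 to 64 counts each, so that their spread is smaller than counting error alone would give and is no measure of likeness. The fasting effect on the HF diet minus that on the LF diet was -1.35 ± 0.38 SE (edgeR unadjusted p = 0.00131, adjusted p = 0.0515). By edgeR 0 of the 10 genes passed this test, where 2.46% of all genes did. Of the 10, 2 had an unadjusted edgeR p below 0.05, as had 1533 of all 11566 genes. DESeq2 called 1 of the 10, Tfrc (adjusted p = 0.0145), and limma voom 0. With lane or age as a term in the edgeR fit the adjusted p was 0.0380 and 0.0254, and with all 32 libraries 0.113. It passed in 6 of 30 fits without 1 mouse, those without HF fed KO replicate 1 or 2, HF fasted KO replicate 3, LF fed KO replicate 2, LF fasted KO replicate 3 or LF fasted WT replicate 3 (edgeR adjusted p from 0.00900 to 0.116 over all 30). Within HF WT mice alone the fasting effect was -1.29 (edgeR adjusted p = 0.110, 0.424% of genes called) and within HF KO mice -0.75 (edgeR adjusted p = 0.713, 0.527% called). The other member with an unadjusted p below 0.05 was Id1 at 1.07 (edgeR adjusted p = 0.360).

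The knockout was the third comparison and left the 10 genes without a call. Over the 4 diet and feeding pairs, 0 of 10 had an adjusted p below 0.05 by edgeR, DESeq2 or limma voom, and 0 had an unadjusted edgeR p below 0.05. Of all genes 0.00865% were called, which is 1 gene, Acadm itself (335 genes at an unadjusted p below 0.05). The log2 fold changes of the 10, KO against WT, lay between -0.16 for Smad7 and 0.26 for Ftl1. For Hamp the interval ran from -0.29 to 0.61, for Hamp2 from -0.66 to 0.77, and for the precisely measured Trf from -0.10 to 0.19 and Tfr2 from -0.13 to 0.15 (95% confidence). Genotype differences up to these bounds, or somewhat beyond them, could have gone undetected. Within single conditions, again 0 of 10 were called by any of the 3 tools or at an unadjusted edgeR p below 0.05 in each of the 4, where 0.00865% of genes were called in each. The widest contrast was Hamp2 in HF fasted mice, -1.05 ± 0.81 SE. For the differences of the fasting effect and of the diet effect between genotypes, 0% of genes were called. For the former, 573 genes and 1 member had an unadjusted edgeR p below 0.05, namely Slc40a1 (-0.48, edgeR adjusted p = 0.955). For the latter these were 397 genes and 0 members, and DESeq2 and limma voom called 0 members in both.

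By group mean, Hamp ranged from 308 ± 156 CPM in HF fed WT mice to 807 ± 355 CPM in LF fasted KO mice, and all LF groups stood above all HF groups. Hamp2 ranged from 8.50 ± 6.56 CPM in HF fasted KO mice to 55.9 ± 14.8 CPM in HF fed KO mice, and all fed groups stood above all fasted groups. Slc40a1 ranged from 132 ± 20.2 CPM in LF fed WT mice to 196 ± 17.1 CPM in HF fed KO mice. Fth1, the ferritin subunit that oxidises iron for storage, ranged from 1444 ± 89.3 CPM in LF fed WT mice to 1755 ± 230.4 CPM in HF fed WT mice. Smad7 ranged from 9.18 ± 2.59 CPM in HF fasted KO mice to 19.0 ± 9.37 CPM in LF fed KO mice. In none of the 10 genes were 2 groups that were neighbours in the order of means separate in their values. The same was not counted over all genes. Groups further apart in the order could be separate, as given above for Trf.

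Individual mice were then compared with their group mean, to see which genes varied together beyond the design. Of 45 pairs among the 10 genes, Id1 and Smad7 were the pair that passed by Pearson correlation, with r = 0.80 and rho = 0.74 over 30 mice (p = 1.90e-04 and 2.90e-04 from 100000 permutations within groups, 0.00855 and 0.0130 adjusted over the 45 pairs). Without the 2 mice farthest out in Id1, both LF fed KO, r was 0.72. It was 0.95 in the 15 fed and 0.51 in the 15 fasted mice, 0.87 in 16 mice of lane 7, 0.88 in 11 mice of lane 8 and 0.82 in all 32. Within a lane, here and below, deviations were taken from the group means of that lane, and groups with 1 mouse there were dropped. In a group left with 2 mice the deviations mirror each other, so that these r rest on fewer independent values than mice. Hamp, a target of the same BMP signal, showed no positive correlation with Id1 or Smad7. Its r was -0.33 with Id1 (rho = -0.43, permutation p = 0.0398 and 0.0193, 0.224 and 0.145 adjusted) and -0.14 with Smad7 (rho = -0.09, permutation p = 0.469 and 0.640, 0.752 and 0.883 adjusted). Without its 2 farthest mice the r of Hamp with Id1 was -0.33.

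By rank correlation 3 more pairs passed, each with a BMP readout and of negative sign. These were Fth1 with Smad7 (r = -0.56, rho = -0.58, permutation p = 0.00496 and 0.00429, 0.0821 and 0.0483 adjusted, r without the 2 farthest mice -0.47), Tfrc with Smad7 (r = -0.46, rho = -0.56, permutation p = 0.00556 and 0.00242, 0.0821 and 0.0363 adjusted, r without the 2 farthest mice -0.52) and Tfrc with Id1 (r = -0.43, rho = -0.55, permutation p = 0.0111 and 0.00169, 0.0834 and 0.0363 adjusted, r without the 2 farthest mice -0.52). Their r within the lanes was -0.56 and -0.81 for Fth1 with Smad7, -0.58 and -0.56 for Tfrc with Smad7, and -0.55 and -0.54 for Tfrc with Id1 (lanes 7 and 8). Within the 15 fed and the 15 fasted mice it was -0.26 and -0.89 for Fth1 with Smad7, -0.54 and -0.37 for Tfrc with Smad7, and -0.54 and -0.28 for Tfrc with Id1. Hamp2 with Tfr2 had r = -0.57 over the 30 mice (rho = -0.47, permutation p = 0.00730 and 0.0278, 0.0821 and 0.179 adjusted, r without the 2 farthest mice -0.57), and 0.37 when the left-out libraries were included.

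**Figure D4:**
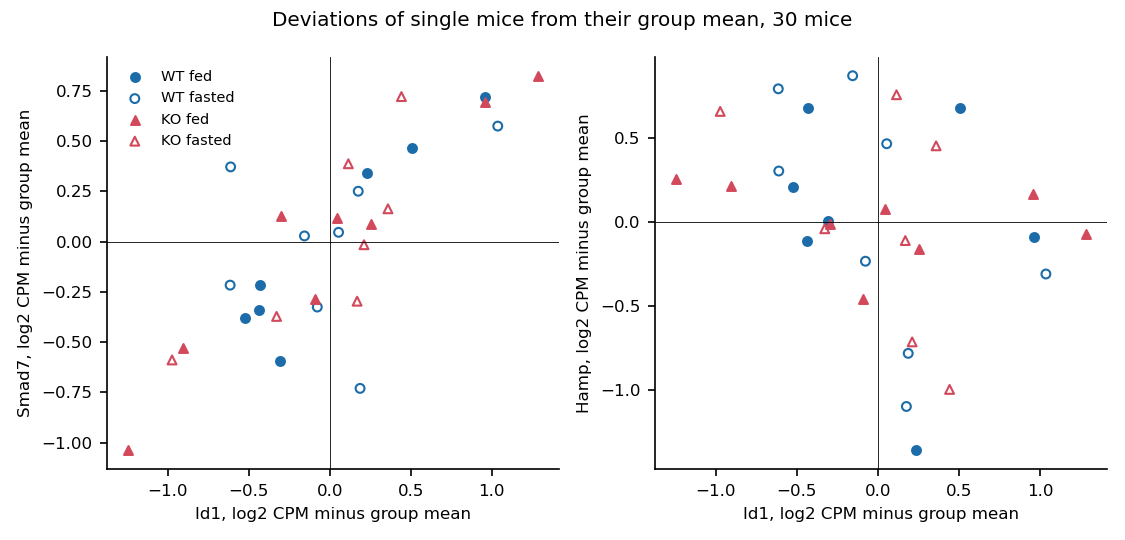
Log2 CPM of Smad7 (left) and Hamp (right) against Id1 in 30 mice, each as its difference from the mean of its group, by genotype and feeding state. Smad7 and Id1 rise together (r = 0.80), whereas Hamp does not rise with Id1 (r = -0.33).

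The wider pathway was described through 6 lists of further genes. With fasting 17 of 86 tested list genes passed, where 18.9% of all genes did, and for diet 4 of 86 passed, where 3.49% of all genes did, so that both shares were near those of all genes. Of the 17 calls for fasting, 6 were lost with all 32 libraries, those of Hnf4a (edgeR adjusted p = 0.651), Hp (0.0613), Pcbp2 (0.109), Slc25a37 (0.110), Alas2 (0.236) and Glrx5 (0.128). With only the library with heart markers put back, that of Creb3l3 was lost as well (edgeR adjusted p = 0.0545). Of the 17, 5 passed within lane 7 and 9 within lane 8. All 4 calls for diet, Ppargc1a, Lcn2, Steap4 and Lrp1, were lost with all 32 libraries and within each lane. Of 28 genes of BMP-SMAD signalling and the receptor complex that senses iron, 26 passed the filter, and with fasting 1 was higher and 1 lower (median log2 fold change -0.05, against -0.0022 over all genes, of which 18.9% were called). Bmpr2, a type II BMP receptor, ranged over 34.3 to 53.2 CPM (median 46.2) in fed and 46.4 to 64.7 CPM (median 55.8) in fasted mice (log2 fold change 0.32 ± 0.081 SE, edgeR adjusted p = 0.00391). Id3, a relative of Id1, ranged over 187 to 500.3 CPM (median 255) in fed and 58.7 to 343 CPM (median 167) in fasted mice (-0.84 ± 0.18 SE, edgeR adjusted p = 0.00118). Bmp6, the main iron-dependent ligand, had a median of 0 CPM and was not tested, nor was the erythroid hormone gene Erfe. The hemojuvelin gene (Hfe2, log2 fold change -0.13) and Tmprss6, the protease that cleaves hemojuvelin (-0.19), did not pass (edgeR adjusted p = 0.410 and 0.0813). For diet 0 of the 26 passed by edgeR, and 6 had an unadjusted p below 0.05, as had 1830 of all 11566 genes.

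Of 11 genes of the STAT3 and gluconeogenic inputs to hepcidin, 3 rose with fasting and 0 fell (median 0.05). Creb3l3, a liver transcription factor activated in fasting and by inflammation, ranged over 165 to 287 CPM (median 207) in fed and 243 to 543 CPM (median 384) in fasted mice (log2 fold change 0.82 ± 0.091 SE, edgeR adjusted p = 8.93e-09). Il6ra, the receptor subunit for interleukin-6, ranged over 5.81 to 17.6 CPM (median 12.5) in fed and 11.2 to 37.1 CPM (median 25.6) in fasted mice (1.19 ± 0.14 SE, edgeR adjusted p = 4.38e-08). Hnf4a, a hepatocyte transcription factor, rose less (0.34 ± 0.098 SE, edgeR adjusted p = 0.0116), a call not kept with the library with heart markers put back (edgeR adjusted p = 0.671). On the HF diet 1 of the 11 fell, Ppargc1a, a coactivator of gluconeogenic genes (-0.54 ± 0.15 SE, edgeR adjusted p = 0.0384), a call kept in 16 of the 30 fits without 1 mouse, with edgeR adjusted p up to 0.0901 without HF fasted KO replicate 3, and lost with all 32 libraries (edgeR adjusted p = 0.921).

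Of 22 further genes of iron uptake, export and plasma carriers, 16 were tested, and with fasting 1 rose and 3 fell (median -0.11). Hp, encoding haptoglobin that binds free haemoglobin, rose (0.87 ± 0.11 SE, edgeR adjusted p = 5.10e-08). The importers Slc11a2, for ferrous iron (-0.43 ± 0.11 SE, edgeR adjusted p = 0.00525), and Slc46a1, for heme and folate (-0.44 ± 0.13 SE, edgeR adjusted p = 0.0108), fell, as did the ferrireductase Steap4 (-0.63 ± 0.21 SE, edgeR adjusted p = 0.0339), whose call was kept in 19 of 30 fits without 1 mouse (edgeR adjusted p up to 0.0570, without LF fed WT replicate 1). On the HF diet 3 rose and 0 fell (median 0.11, against 0.0068 over all genes). Lcn2, which binds bacterial iron carriers, ranged over 0.527 to 8.01 CPM (median 1.86) on the LF and 2.72 to 58.7 CPM (median 5.23) on the HF diet (1.61 ± 0.36 SE, edgeR adjusted p = 0.00785). Steap4 (0.91 ± 0.21 SE, edgeR adjusted p = 0.0136) and Lrp1, a receptor that clears heme with hemopexin (0.26 ± 0.07 SE, edgeR adjusted p = 0.0260), rose as well, the last with a call lost in 2 of 30 fits without 1 mouse (edgeR adjusted p up to 0.0512). With all 32 libraries the edgeR adjusted p was 0.290 for Lcn2, 0.0613 for Steap4 and 0.572 for Lrp1, and with only the library with heart markers put back it was 0.637 for Lrp1. The summed acute-phase markers were highest in HF fasted KO replicate 3, at 10485 CPM against 3074 to 5369 CPM in the other 29 mice, and Hamp in that mouse was 299 CPM.

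Of 10 genes of iron sensing and storage 8 were tested, and with fasting 1 rose and 2 fell (median -0.21). Fbxl5, which removes an iron regulatory protein when iron is high (-0.46 ± 0.11 SE, edgeR adjusted p = 0.00239), and the mitochondrial iron importer Slc25a37 (-0.44 ± 0.12 SE, edgeR adjusted p = 0.00517) fell, and the iron chaperone Pcbp2 rose (0.27 ± 0.085 SE, edgeR adjusted p = 0.0199). Of 15 genes of heme synthesis and breakdown 13 were tested, 2 rose and 2 fell (median -0.11). Alas1, the rate-limiting enzyme of liver heme synthesis, ranged over 10.6 to 168 CPM (median 54.5) in fed and 53.1 to 552 CPM (median 244) in fasted mice (1.75 ± 0.41 SE, edgeR adjusted p = 0.00337). Cpox, a later enzyme of that pathway, rose (0.84 ± 0.095 SE, edgeR adjusted p = 1.02e-08), while the mitochondrial transporter Abcb10 (-0.95 ± 0.11 SE, edgeR adjusted p = 6.59e-09) and the erythroid enzyme Alas2 (-0.47 ± 0.10 SE, edgeR adjusted p = 8.67e-04) fell. Of 12 genes of iron-sulfur cluster assembly 1 rose, the glutaredoxin Glrx5 (0.26 ± 0.072 SE, edgeR adjusted p = 0.00699), and 0 fell. In the last 3 lists 0 genes passed for diet by edgeR. An unadjusted p below 0.05 was found for 1 of 8 sensing, 6 of 13 heme and 1 of 12 cluster genes. The same held for 1830 of all 11566 genes. In all 6 lists together, 0 of 86 tested genes passed for genotype or for any of the 3 differences of effects by edgeR. At an unadjusted p below 0.05 these were 2 genes for genotype, 15 for the difference of the fasting effect between diets, 4 for that between genotypes and 5 for the diet effect between genotypes. Over all 11566 genes the counts were 335, 1533, 573 and 397, in the same order. The lists were tested by edgeR alone.

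**Figure D5:**
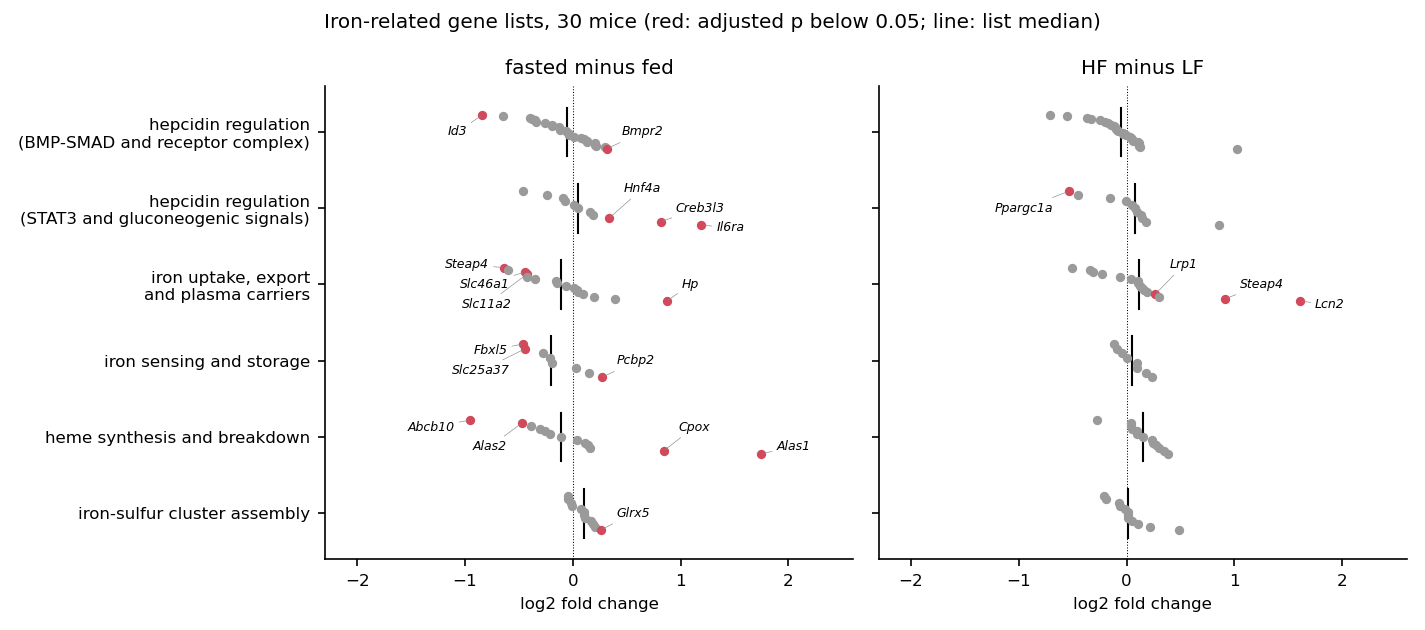
Log2 fold changes (horizontal axes) of single genes of the 6 iron-related lists (rows) for fasting and for the HF diet in 30 mice, red and named at an edgeR adjusted p below 0.05, with a line at each list median. Alas1 is the gene highest with fasting and Lcn2 the gene highest on the HF diet.

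Markers of cell types and of the acute phase were counted in the same way, where 18.9% of all genes passed for fasting and 3.49% for diet. Of 11 Kupffer cell markers 1 was lower with fasting, Adgre1 (log2 fold change -0.60, edgeR adjusted p = 0.0107), and their sum ranged from 462 to 655 CPM (median 560) in fed and from 324 to 852 CPM (median 422) in fasted mice. Of 5 tested erythroid markers 2 were lower with fasting, Hbb-bt (-0.39, edgeR adjusted p = 0.0431) and Alas2, which also stands among the heme genes above, and the erythroid sum was 538 to 1217 CPM in fed and 464 to 1298 CPM in fasted mice. Of 13 tested acute-phase markers, 4 were higher and 1 lower with fasting, and 3 higher on the HF diet. Hp, Lcn2 and Steap4 are among these markers, so that their calls given above are counted here again. Of 10 markers of liver endothelium 1 was higher, Lyve1, and 1 lower, Dnase1l3. The part of cell composition in the values of Hamp2, Trf, Tfr2 and Hamp was not tested. Of 10 hepatocyte markers 3 were higher and 1 lower with fasting, and 0 higher and 1 lower on the HF diet. Their sum overlapped between fed (45584 to 63898 CPM) and fasted mice (47427 to 72024 CPM). It also overlapped between mice on the LF (47474 to 69874 CPM, median 54486) and the HF diet (45584 to 72024 CPM, median 49754.5).

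Among 11556 other genes, those whose log2 CPM followed Hamp most closely over the 30 mice were Pik3c2a (0.70), Cps1 (0.70), Pglyrp2 (0.68), Ass1 (0.66) and G6pc (0.66), with Pearson r in parentheses, given as a description with no test. Closest to Tfrc were Prelid3b (0.61), Wdr82 (0.59), Slc25a15 (0.59), Kynu (0.58) and Pdhb (0.56), and closest to Id1 were Eml2 (0.77), Sox9 (0.75), Zbtb46 (0.64), Kdm7a (0.63) and Dhx40 (0.62). Cps1 and Ass1 are urea cycle enzymes and G6pc is the last enzyme of glucose release. Cps1 and Ass1 also stand among the hepatocyte markers counted above. After group means were removed, Ass1 and Hamp still had r = 0.71, and Eml2 and Id1 r = 0.72.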

How the data were processed

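Liver RNA of 32 mice was sequenced as 3′ tag libraries (QuantSeq, single reads of 50 bases). Per the labels and the study's methods, the authors aligned reads to GRCm38 with HISAT 0.1.5, sorted them with SAMtools 1.2 and assigned them to Ensembl genes with HTSeq 0.6.1p1 in union mode, and the deposited values are raw counts per gene, not normalized. The strand setting of the counting is not given in the sources used here. Of 20076 gene IDs, 19913 matched a symbol in the GENCODE vM21 annotation of GRCm38. Totals of 2031053 to 4292200 counts per mouse limit the precision of low genes.

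The 10 genes and the pathway and marker lists were chosen with earlier results of these data known. In R 4.3.3, edgeR 4.0.16 was run with TMM factors, filterByExpr and robust quasi-likelihood fits in a single model of the 8 groups over 30 mice, with 2 libraries left out, and with Benjamini-Hochberg adjustment over 11566 genes. Effects were averaged with equal weight over 4 pairs of groups. Intervals are nominal 95% intervals from the standard error and the normal distribution, so that they are somewhat narrower than edgeR's test implies. Fold changes are those of the edgeR fit. All 10 members were named, and of the lists every gene that passed for fasting, diet, genotype or a difference of effects, up to 5 per list and direction. Hfe2, Tmprss6, Bmp6 and Erfe were named beside these after their values were seen. Correlations used log2 CPM with a prior count of 2, as deviations from group means. DESeq2 1.42.0, limma 3.58.1 voom, other factors, no filter, other sets of libraries, a replicate block, lane or age as a term, 2-group fits, additive fits within each lane and fits without each mouse were tried. The tests were checked on simulated data. Mice of the same replicate number did not deviate together, and no 2 libraries of a group agreed within counting error. Promoter sequences are from RefSeq (GRCm38.p6), sites from the reference transcripts.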

Additional observations from a re-analysis of the deposited data

Results flagged for a closer look

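In groups of 4 mice, the mouse farthest out was set against the range of its group, and 6 of 60 gene and group combinations exceeded the 95% critical value of Dixon's test. Chance alone gives about 1 in 20. Hamp2 in LF fed KO replicate 4 was 17.5 CPM, where the nearest of the other mice had 54.9 CPM. Trf in HF fed WT replicate 1 was 5848 CPM, with the nearest mouse at 6889.9 CPM, and in LF fasted WT replicate 1 it was 4003 CPM, with the nearest at 5464 CPM. Tfr2 in HF fasted WT replicate 2, the library with pancreatic markers, was 202 CPM, with the nearest mouse at 249.7 CPM. Tfr2 in LF fed KO replicate 4, the mouse with low Hamp2, was 242 CPM, with the nearest mouse at 215 CPM. Ftl1 in LF fasted WT replicate 4 was 3.54 CPM, with the nearest mouse at 2.24 CPM.

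The library labelled LF fed WT replicate 2 was left out of the main fits. It held more Hamp2 (98.7 CPM) than any of the 30 mice (up to 74.1 CPM on the same scaling) and more Id1 (98.1 CPM, against up to 75.2 CPM).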

How the results depend on the processing

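Reversal of direction was checked for member effects with an unadjusted edgeR p below 0.05 and for list genes that passed. None of these fold changes reversed under the alternatives that were run. Fold changes of the other effects, some of them close to 0, were not checked in this way. The correlation of Hamp2 with Tfr2 went from -0.57 to 0.37 with all 32 libraries. The number of the 10 genes called for fasting over the 4 pairs was 3. It was 1 with all 32 libraries and 1 with the library with heart markers kept, and 0 within lane 7, where no LF fed WT mouse was sequenced and the effect is that of an additive model. For fasting in LF WT mice it was 1, and 0 with no filter, all 32 libraries, the heart library kept, or lane as a term, 2 with LF fed WT replicate 2 kept, 2 in a fit of the 2 groups alone, and 0 to 1 over the fits without 1 mouse. For fasting in LF KO mice it was 1, and 2 with limma voom, 0 with all 32 libraries, the heart library kept or the 2 groups alone, and 0 to 2 without 1 mouse. For fasting in HF WT mice it was 0, and 1 with DESeq2 or the 2 groups alone, and in HF KO mice 0, and 1 with DESeq2. For diet over 4 pairs it was 1, and 0 with no filter, all 32 libraries, the heart library kept, the pancreas library left out, age as a term or lane 7 alone, and 0 to 1 without 1 mouse. For diet in fasted mice it was 0, and 1 with DESeq2 or limma voom, and 0 to 2 without 1 mouse. For the difference of the fasting effect between diets it was 0, and 1 with DESeq2, lane or age as a term, and 0 to 1 without 1 mouse. The count of member pairs that passed by Pearson correlation was 1, and 0 within lane 7 and within lane 8, which hold fewer mice. With LF fed WT replicate 2 kept and the heart library left out, the fasting effect on Tfr2 was 0.28, edgeR adjusted p = 0.0197. The causes of these changes were not tested.

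Replicate numbers are shared by the groups, but same-numbered mice did not deviate together (median correlation 0.00603 over 98 pairs, 96 of them at or below 0.1). With a replicate block the count for fasting in LF WT mice was 0, and the counts over the 4 pairs stayed at 3 for fasting and 1 for diet.

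The number of all genes called moved by over 1.5 times in the following. For fasting over 4 pairs the count was 2187, against 344 within lane 7 and 1449 within lane 8. For fasting in LF WT the count was 872, against 414 with all 32 libraries, 337 with the heart library kept and 541 without LF fed WT replicate 3. For fasting in HF WT the count was 49, against 141 with DESeq2, 0 with all 32 libraries, 27 with LF fed WT replicate 2 kept, 2 with the heart library kept, 157 without the pancreas library, 85 with the 2 groups alone, 1 without HF fed WT replicate 3 and 157 without HF fasted WT replicate 2. For fasting in LF KO the count was 1595, against 735 with all 32 libraries, 781 with the heart library kept and 759 with the 2 groups alone. For fasting in HF KO mice the count was 61, against 144 with DESeq2, 39 with all 32 libraries, 16 with LF fed WT replicate 2 kept, 38 with the heart library kept, 30 with the replicate block, 4 without HF fasted KO replicate 3 and 117 without HF fasted KO replicate 1. For diet over 4 pairs the count was 404, against 81 with all 32 libraries, 80 with the heart library kept, 53 within lane 7 and 85 within lane 8. For diet in fed mice the count was 31, against 96 with DESeq2, 2 with all 32 libraries, 18 with LF fed WT replicate 2 kept, 5 with the heart library kept, 47 with age as a term, 13 without LF fed WT replicate 3 and 55 without LF fasted KO replicate 1. For diet in fasted mice the count was 769, against 293 with all 32 libraries and 315 with the heart library kept. For the difference of the fasting effect between diets the count was 285, against 430 with DESeq2, 22 with all 32 libraries, 152 with LF fed WT replicate 2 kept, 18 with the heart library kept and 170 without LF fed WT replicate 3. For genotype the count was 1 over the pairs and in each condition, and at most 4 in any fit. Some settings that changed the calls of members moved the count of all genes by less. For fasting over 4 pairs that count was 1553 with all 32 libraries and 1569 with the heart library kept. For diet over 4 pairs it was 339 with no filter, 349 without the pancreas library and 370 with age as a term. For diet in fasted mice it was 956 with DESeq2 and 760 with limma voom.

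Counting error limits Hamp2, Tfrc, Id1, Smad7 and Ftl1 most, the last of which shares sequence near its transcript end with other genes, Ftl1-ps1 among them. Groups hold 3 or 4 mice. All LF fed WT mice used were on lane 8, so that lane and group cannot be told apart there. Strand was not stated for the counting.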
